A study of Mus musculus with 17 samples.

Results

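The genes that write, remove, read and maintain DNA methylation, together with the Polycomb proteins and the enzymes that modify histones, were examined as targets of methylation change in mouse blood. Of 51 such genes, 28 held at least 1 measured CpG site, and 96 sites were measured in them out of 18884 autosomal sites tested. A site belonged to a gene when it lay between 1000 bp before the annotated transcription start and the end of the gene (GENCODE annotation, mouse build mm9), and it counted as measured when at least 13 of the 17 mice had 50 reads or more there. The genes held 373 assayed sites in all, of which 277 did not reach that depth. A gene had between 1 and 8 measured sites, the most being at Dnmt3a.

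Whole blood was taken from C57BL/6 mice in 3 groups. AL-young were 5 mice of 4 months (2 females and 3 males), fed ad libitum, that is, without limit. AL-old were 7 mice of 29 to 33 months (5 females and 2 males), fed in the same way. CR-old were 5 mice of 32 to 38 months (2 females and 3 males) kept on caloric restriction, a diet lower in calories. Ages of CR-old and AL-old overlapped only in part, so diet and age differed together between these groups. Each mouse was a separate animal with 1 library, and mice are called by group and number, such as AL-old 08. Blood is a mixture of cell types, and a changed share of a cell type cannot be told apart from a change of methylation within cells.

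DNA methylation in mammals is carried by the cytosine of CpG dinucleotides. Dnmt3a and Dnmt3b place it on unmethylated DNA, Dnmt1 copies it after replication with the help of Uhrf1, and the Tet enzymes oxidise it as a step to its removal. Proteins of the Mbd family bind methylated CpGs. Polycomb complex 2, built around Ezh1 or Ezh2, methylates lysine 27 of histone H3, and Polycomb complex 1, with its Ring1, Rnf2, Cbx and Phc subunits, binds that mark. Most genes active in many tissues start within a CpG island, a stretch rich in CpG that is normally unmethylated, whereas CpGs elsewhere in the genome are mostly methylated. Dnmt3a and Tet2 are among the genes most often mutated in clonal expansions of blood cells in aged people.

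The assay, DREAM, reads methylation at the 6-base sequence CCCGGG. The enzyme SmaI cuts this sequence only when its CpG is unmethylated, XmaI then cuts what is left, and the ends left by the 2 enzymes tell the states apart in sequencing. The raw methylation level used here is the percentage of reads at a site that carried the methylated end. Each sequence below is the plus strand of mm9 with the assayed CCCGGG in capitals. The first lines hold the 5 sites that were lower in AL-old mice with the nearest measured neighbour of those whose neighbour was not called.
Dnmt3a +12636 at chr12:3819767-3819826: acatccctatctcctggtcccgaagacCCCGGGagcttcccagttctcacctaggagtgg
Dnmt3a +12834 at chr12:3819965-3820024: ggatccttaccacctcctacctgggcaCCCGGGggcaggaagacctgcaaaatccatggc
Cbx6 +5073 at chr15:79659126-79659185: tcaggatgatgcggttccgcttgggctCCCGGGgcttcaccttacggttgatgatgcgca
Cbx6 +4824 at chr15:79659375-79659434: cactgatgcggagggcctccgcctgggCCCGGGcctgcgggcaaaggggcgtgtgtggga
Phc2 +1575 at chr4:128406772-128406831: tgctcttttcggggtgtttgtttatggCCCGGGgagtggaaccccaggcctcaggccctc
Phc2 +1174 at chr4:128406371-128406430: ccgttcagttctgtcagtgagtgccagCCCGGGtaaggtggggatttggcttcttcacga
Kdm6b -731 at chr11:69218419-69218478: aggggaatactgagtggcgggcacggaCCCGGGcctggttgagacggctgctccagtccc
Kdm6b -580 at chr11:69218268-69218327: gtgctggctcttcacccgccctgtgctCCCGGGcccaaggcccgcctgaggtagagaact
The next lines hold the Tet1 sites at which a single old mouse stood apart, and a pair of promoter sites that stayed unmethylated.
Tet1 -7186 at chr10:62349919-62349978: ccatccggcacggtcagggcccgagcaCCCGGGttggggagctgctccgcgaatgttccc
Tet1 -7283 at chr10:62350016-62350075: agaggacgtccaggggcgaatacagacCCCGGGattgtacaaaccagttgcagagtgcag
Uhrf1 -2 at chr17:56443705-56443764: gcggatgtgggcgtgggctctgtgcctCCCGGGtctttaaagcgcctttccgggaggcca
Dnmt3b -34 at chr2:153475123-153475182: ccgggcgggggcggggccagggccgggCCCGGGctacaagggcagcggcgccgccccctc
The number after a gene is the distance in bp from the nearest annotated transcription start of that gene, positive downstream. The 501 bp around the site held 60 CpGs at Dnmt3b -34 and 48 at Uhrf1 -2, against 7 at Dnmt3a +12834 and 11 at Phc2 +1575. Kdm6b -731 and Kdm6b -580, 151 bp apart and with 17 and 23 CpGs around them, lay in coding sequence of longer transcripts of the gene.

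Libraries held between 6.41 M genomic reads (AL-old 27) and 51.6 M (AL-young 30). The authors also deposited a level adjusted by standards of known methylation, which amounted to multiplying the odds of methylation by a constant in each mouse. That odds factor was between 0.872 and 1.13 in 11 mice, and 1.3 or more in 6 females: AL-old 08 (3.19), 09 (2.29), 10 (1.45), 13 (3.96) and 14 (1.40) and CR-old 06 (1.80). Those 6 libraries had a lower share of methylated genomic reads (16.0 ± 4.16%, SD) than the other 11 (26.7 ± 1.64%). All AL-old females, of 29 or 30 months, and neither AL-old male, both of 33 months, had a high factor, and no AL-young mouse had one. The factor therefore cannot be told apart from sex or age within AL-old. Only AL-old 25 and AL-old 27 offer a comparison with AL-young at a low factor. Results are from raw counts, and beside each called site of these genes stands the fit that takes the odds factor as an offset. Over all sites tested, the median log2 odds ratio of AL-old against AL-young was -0.25 on raw counts and 0.27 with the offset, and that of CR-old against AL-old was -0.09 and -0.51. Blood cell markers gave few sites: among promoters, the T cell gene Bcl11b (4 sites) was at 0.710% in AL-young, 10.4% in AL-old and 1.43% in CR-old, with all 4 sites called higher in AL-old than AL-young. The B cell gene Pax5 was at 0.451%, 0.0746% and 0.408%, the myeloid gene Cebpa at 0.224%, 0.325% and 0.298%, and Nkx2-1, a gene of lung and thyroid, at 1.62%, 2.37% and 1.92%. These 4 genes do not identify the tissue, and the part of cell makeup in the results below was not tested.

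The promoter-island sites of the regulators were unmethylated in every group. Of the 96 sites, 64 in 22 genes lay in a CpG island within 1000 bp before or 500 bp after a transcription start, which could be that of an overlapping gene. The median over these 64 sites of the group mean was 0.0166% in AL-young, 0.00661% in AL-old and 0.0138% in CR-old. At 63 of them every mouse was under 2% (98.4%), compared with 72.5% of the promoter islands among all tested sites. The exception was Tet3 +183, at which CR-old 02 had 4.05%, the highest value in any promoter island of these genes. None of the 64 sites was called higher or lower in any of the 3 comparisons. A site was called when the Benjamini-Hochberg adjusted p of edgeR's quasi-likelihood test was under 0.05 and the group means were at least 2 points apart, so a site under 2% in every mouse could not be called. Among all promoter islands tested, 5.11% were called higher and 0.502% lower in AL-old than AL-young.

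**Figure D1:**
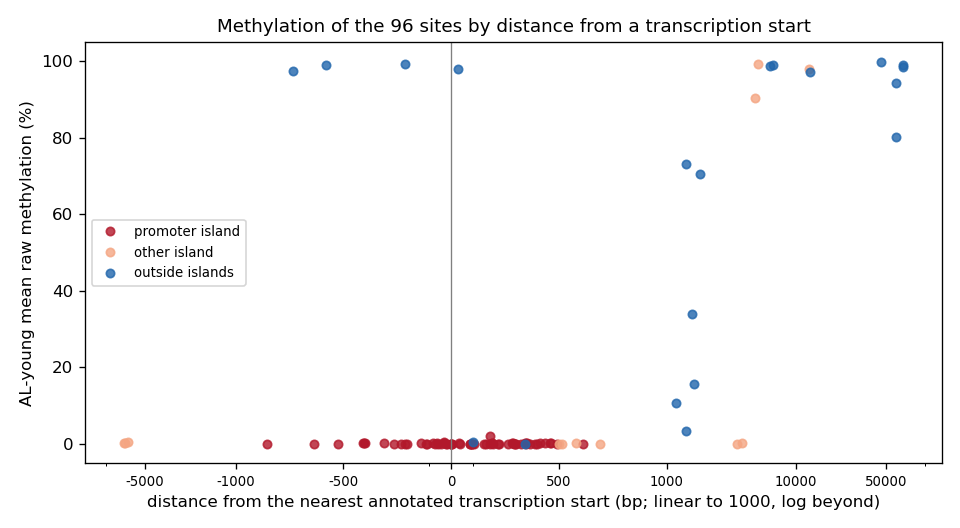
Mean raw methylation of AL-young mice (y axis, percent) at each of the 96 sites, by distance in bp from the nearest transcription start of the gene (x axis, linear to 1000 bp and logarithmic beyond). Points are sites, coloured by position in a promoter island, another island or outside islands. The 64 promoter-island sites lie near 0%, and the sites outside islands spread from 0% to 100.0%.

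Pooling the reads gave a finer limit. In the 64 promoter-island sites together, 142 of 247732 reads were methylated in AL-young (0.0573%), 74 of 239265 in AL-old (0.0309%) and 77 of 152094 in CR-old (0.0506%). The share in single mice ran from 0.0470% to 0.0816% in AL-young and from 0.0418% to 0.0676% in CR-old. In AL-old it was 0.00895% to 0.0361% in the 5 mice with a high odds factor, and 0.0745% and 0.0696% in AL-old 25 and AL-old 27. Within AL-old the low values were those of the high-factor females, and AL-old 25 and AL-old 27, both males, were within the range of the young. CR-old 06, which also had a high factor, had 0.0429%, close to CR-old 22 with a low factor (0.0418%). The cause was not tested. Rnf2, a catalytic subunit of Polycomb complex 1, had no methylated read in its 2 promoter sites among 5282, 2682 and 3028 reads of the AL-young, the AL-old and the CR-old mice, which allows at most 0.0568%, 0.112% and 0.0991%. These limits cover counting error only.

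The 20 sites outside islands were mostly methylated and varied more. The median of their group means was 95.8% in AL-young, 81.5% in AL-old and 91.2% in CR-old, and 11 of the 20 were over 90% in AL-young. Site by site the typical difference was smaller. Its median was -0.767 points for AL-old against AL-young (-3.41 over all tested sites outside islands). It was 0.259 for CR-old against AL-old (0.693) and -2.48 for CR-old against AL-young (-2.88). On adjusted values the first 2 medians were -0.299 and -0.634 points. The SD between AL-old mice exceeded 10 points at 7 of these 20 sites (35.0%), against 50.6% of all tested sites outside islands. Summed over the reads of all 20 sites, methylation was 65.3 ± 1.60% in AL-young, 58.1 ± 11.9% in AL-old and 61.0 ± 3.42% in CR-old (mean over mice ± SD). The remaining 12 sites lay in islands away from promoters, with medians of 0.171%, 0.267% and 0.176%.

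**Figure D2:**
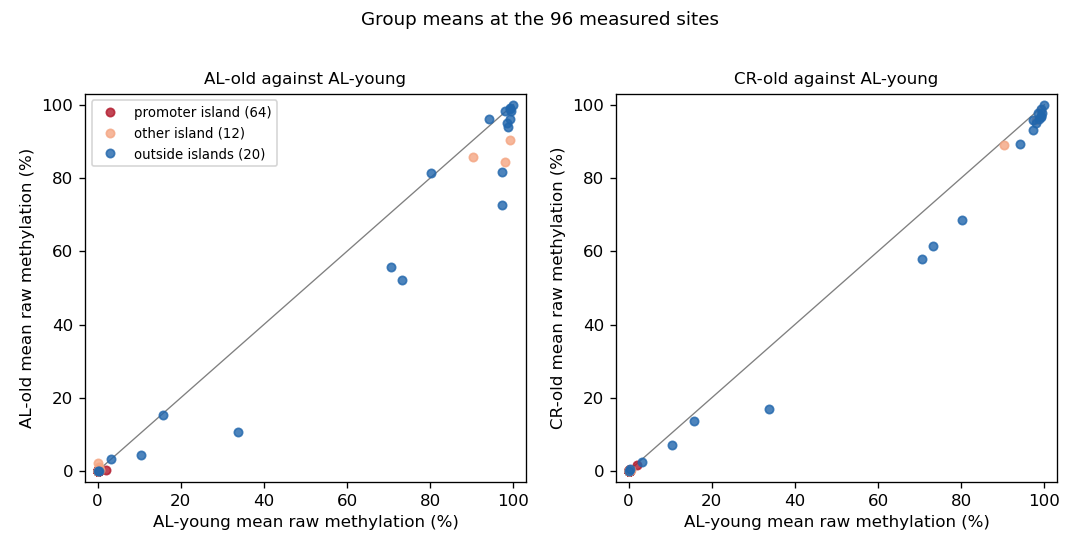
Mean raw methylation (percent) of AL-old (left) and CR-old (right) on the y axes against AL-young on the x axes at the 96 sites, with the line of equality. Sites near 0% stay near it, and the sites farthest under the line in AL-old include Kdm6b -731 (97.4% against 72.6%) and Phc2 +1575 (33.9% against 10.7%).

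Between AL-old and AL-young, 5 of the 96 sites were called lower (5.21%) and 0 higher, in Dnmt3a (2 sites), Cbx6, Phc2 and Kdm6b. Among all tested sites 6.01% were called lower and 3.94% higher. At an unadjusted edgeR p under 0.05 the count was 12 of the 96 member sites, against 4236 of all 18884 sites. The called sites made up 3 of 20 sites outside islands (15.0%, background 15.4%) and 2 of 12 in other islands (background 3.08%, with 5.79% called higher). With the odds factor as offset 2 were called lower and 1 higher, against 3.31% and 7.62% of all sites. With the high or low factor as a covariate 1 was lower and 1 higher (background 1.17% and 4.92%), and among mice with a low factor 2 and 2 (1.7% and 8.67%). Between CR-old and AL-old 0 sites were called higher or lower (background 1.58% and 1.76%). At an unadjusted edgeR p under 0.05 there were 4 of 96, against 2978 of all 18884 sites. With the offset 2 were called lower in CR-old and 0 higher (background 6.87% and 1.19%). No site had all CR-old mice higher or lower than all AL-old mice (background 0.281% and 0.81%). Between CR-old and AL-young 0 were called (background 0% in both directions). Here 2 of 96 had an unadjusted edgeR p under 0.05, against 1289 of all 18884 sites.

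The measured DNA methyltransferase genes had unmethylated promoters and, in Dnmt3a, a pair of changed intron sites. In the introns of Dnmt3a, the de novo methyltransferase, 2 sites 198 bp apart fell in some old AL mice. Whether these 2 sites were read from the same DNA fragments was not tested. Dnmt3a +12636 (chr12:3819794-3819799, in a CpG island of the intron) was at 97.1%, 99.1%, 98.5%, 97.6% and 98.1% in AL-young 15, 16, 28, 29 and 30. In AL-old it ran from 51.3% through a median of 95.2% to 98.3%, and in CR-old mice it was 98.5%, 96.9%, 93.8%, 94.4% and 96.2%. AL-old 13 (51.3%), 08 (68.7%) and 09 (84.0%) were under every mouse of the other groups, and the other 4 AL-old mice were within the range of the young and CR-old. The group means were 98.1 ± 0.789% (SD, n = 5), 84.5 ± 18.1% (n = 7) and 95.9 ± 1.90% (n = 5). The log2 odds ratio of AL-old against AL-young was -2.29 ± 0.79 (SE, edgeR adjusted p = 0.0476). With the offset it was -1.66 (edgeR adjusted p = 0.105). Leaving out a single mouse ended the call in 12 of 17 cases, namely every AL-young mouse, AL-old 08, 09 and 13 and CR-old 02, 19, 20 and 22, with adjusted p from 0.0508 to 0.14.

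Dnmt3a +12834 (chr12:3819992-3819997, intron, outside islands) had the same low mice and 1 more. The AL-young mice had 96.4%, 97.6%, 97.6%, 97.4% and 97.6%. AL-old ran from 53.5% (AL-old 13) through a median of 82.9% to 96.8%, with AL-old 08 at 68.8% and AL-old 27, a male with a low odds factor, at 78.1%. CR-old mice had 93.2%, 97.9%, 90.4%, 91.7% and 92.5%. The 4 lowest AL-old mice were under every other mouse. Among CR-old mice 4 were under every young mouse, and CR-old 06, with a high factor, was above every young mouse. Means were 97.3 ± 0.538%, 81.6 ± 16.3% and 93.1 ± 2.85%, and the log2 odds ratio with age was -2.44 ± 0.73 (SE, edgeR adjusted p = 0.0186). With the offset the log2 odds ratio was -1.72 (edgeR adjusted p = 0.0797), and among mice with a low factor it was -2.19 (adjusted p = 0.0248). The call ended without AL-old 08 (adjusted p = 0.0535) or AL-old 13 (0.0548). In a fit of AL-young and CR-old alone the site was also called lower in CR-old (edgeR adjusted p = 0.0328). The share of all sites called in that fit is not given.

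**Figure D3:**
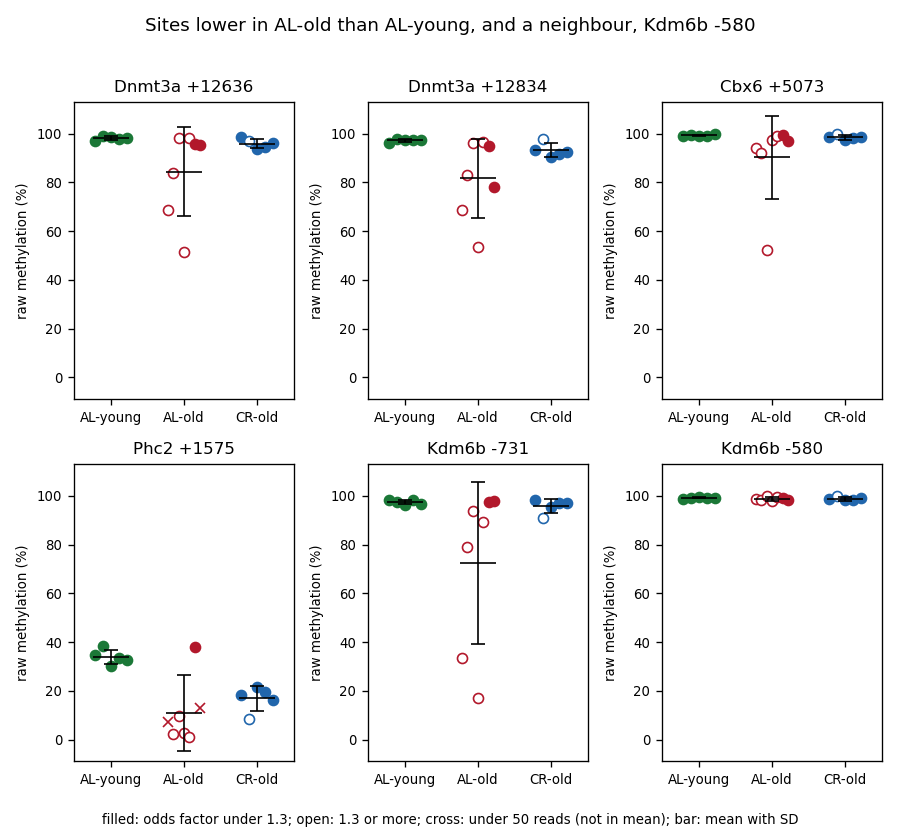
Raw methylation (percent, y axes) in each mouse of AL-young, AL-old and CR-old at the 5 sites called lower in AL-old and at Kdm6b -580. Filled circles have an odds factor under 1.3, open circles 1.3 or more, and crosses under 50 reads; bars are the mean with SD. At Dnmt3a +12636 and Kdm6b -731 the low values are open circles, and at Dnmt3a +12834 AL-old 27 (78.1%) is a low filled circle.

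Other sites of Dnmt3a did not pass the test. Dnmt3a +6, the site nearest to a start of the gene, lay in an untranslated region and had no methylated read in any mouse. Dnmt3a +1643, in an intron, was at 15.7 ± 3.90%, 15.4 ± 19.4% and 13.6 ± 5.86%. AL-old 27 had 53.2% there (95% Wilson interval 47.4 to 58.9%), AL-old 08, 09, 10 and 13 had 1.08% to 3.40%, AL-old 25 had 19.6% and AL-old 14, with a high factor, 25.9%. The AL-young mice had 9.59% to 20.0%. At Dnmt3a +1414, 229 bp away, AL-old 27 had 12.4%, against group means of 3.23%, 3.30% and 2.43%. These Dnmt3a values were chosen after they were seen. Dnmt3b, the other de novo methyltransferase, had 4 promoter-island sites with 25 methylated of 19831 reads in AL-young (0.126%), 10 of 17877 in AL-old (0.0559%) and 13 of 11690 in CR-old (0.111%). They include Dnmt3b +611, which counted as a promoter site only through the overlapping gene 7530422B04Rik. Dnmt3b -34 was at 0.447%, 0.0309% and 0% (AL-old against AL-young, edgeR adjusted p = 0.178). Uhrf1, which recruits Dnmt1 to newly replicated DNA, had 3 methylated of 13069 reads, 0 of 16250 (at most 0.0185%) and 1 of 8107 in its 3 promoter sites. Dnmt1 and Dnmt3l had no measured site.

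The Tet genes held values that differed between single old mice. No site of Tet1 and Tet3, which oxidise methylated cytosine, or of Mbd2, a reader of methylation, was called on raw counts. Tet1 -7186 (chr10:62349946-62349951) lay in an intron and in a CpG island of that intron, upstream of the nearest start of a shorter Tet1 transcript. It was at 0.142 ± 0.105% in AL-young, 2.16 ± 4.63% in AL-old and 0.201 ± 0.183% in CR-old. AL-old 27 had 12.6% (Wilson interval 10.5 to 15.2%), and the other 6 AL-old mice had 0.134% to 0.689%. At Tet1 -7283, 97 bp away, the same mouse had 7.49% (5.66 to 9.85%) against group means of 0.245%, 1.24% and 0.394%, and at Tet1 -6834, 352 bp away on the other side and the site nearest to a start, it had 1.85% with means of 0.472%, 0.376% and 0.163%. The log2 odds ratio of AL-old against AL-young at Tet1 -7186 was 2.13 ± 0.86 (SE, edgeR adjusted p = 0.108). It was 3.01 with the offset (adjusted p = 0.00647) and the site was then also lower in CR-old than AL-old (-2.37, adjusted p = 0.0497), while without AL-old 25 the adjusted p of the age comparison was 0.048. Among mice with a low factor, of which AL-old 27 is 1 of 2 old AL mice, Tet1 -7186 and Tet1 -7283 were both called higher (log2 odds ratios 4.53 and 3.78, adjusted p 0.0255 and 0.0104). These Tet1 sites were chosen after their values were seen.

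Tet3 had intermediate levels downstream of its start. Tet3 +1414 was at 73.2 ± 5.74%, 52.2 ± 19.9% and 61.4 ± 5.87%, and in AL-old it ran from 31.3% through a median of 45.4% to 80.4%. AL-old 27 had 35.1% and AL-old 25 had 73.1%, so the mice with a low factor lay at opposite sides of the group. The difference did not pass the test (edgeR adjusted p = 0.208). Tet3 +1823, 409 bp away and chosen after its values were seen, was at 70.5 ± 5.31%, 55.7 ± 15.6% and 57.9 ± 8.23%. At Tet3 +183, in the promoter island and also chosen after its values were seen, AL-young had 2.02 ± 0.672% (n = 4), AL-old 0.341 ± 0.472% (n = 5) and CR-old 1.57 ± 1.75% (n = 4). It was the only 1 of the 96 sites at which all AL-old mice with 50 reads were lower than all such AL-young mice, against 2.06% of all sites, no site had all of them higher (background 2%), and its edgeR adjusted p was 0.0642. Those 5 AL-old mice all had a high odds factor, as AL-old 25 and AL-old 27 had 32 and 22 reads. On adjusted values the groups overlapped, with 2 of the 5 under every young mouse, 1 above, and means of 1.73% in AL-old and 2.48% in AL-young. Tet3 -138 was at 0.158%, 0.138% and 0.410%. Tet2, which came closest among the genes with no measured site, had 50 reads at its best site in 12 mice, Mbd3 in 11, and Mbd4 held no assayed site. Mbd1 and Tdg, a glycosylase that excises the oxidised base, were not measured either.

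**Figure D4:**
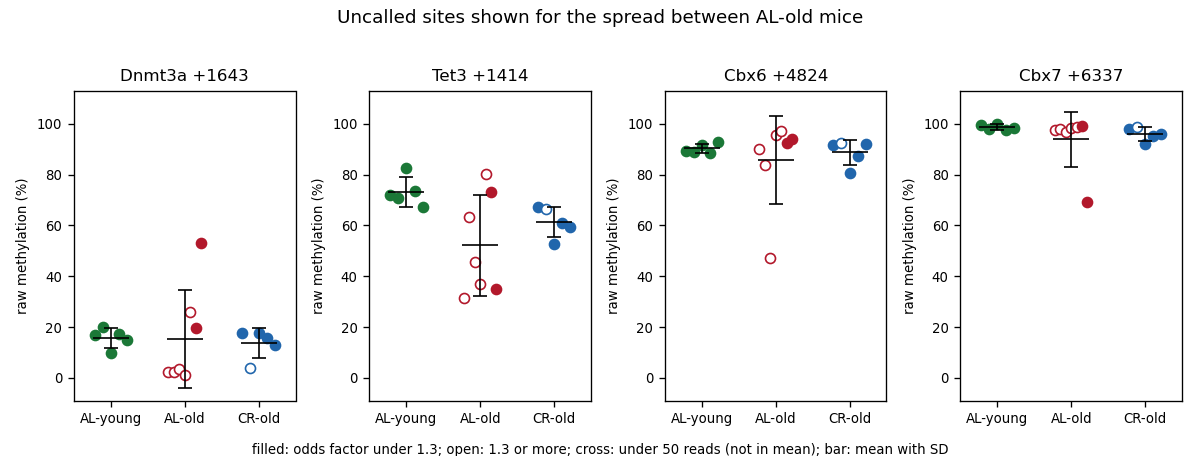
Raw methylation (percent, y axes) in each mouse at Dnmt3a +1643, Tet3 +1414, Cbx6 +4824 and Cbx7 +6337, none of which was called. Filled circles have an odds factor under 1.3 and open circles 1.3 or more; bars are the mean with SD. AL-old 27 has the highest value at Dnmt3a +1643 (53.2%) and the lowest at Cbx7 +6337 (69.4%), and AL-old 10 the lowest at Cbx6 +4824 (47.3%).

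Polycomb complex 1 gave 2 called sites, in Cbx6 and Phc2. Cbx6, whose chromodomain binds the Polycomb histone mark, had no measured promoter site. Cbx6 +5073 (chr15:79659153-79659158) lay in a coding exon, in an island, where the gene Npcd also runs. AL-young mice had 99.0%, 99.5%, 99.0%, 99.2% and 99.7%. AL-old ran from 52.5% through a median of 97.1% to 99.4%, and CR-old mice had 98.7%, 99.8%, 97.2%, 98.1% and 98.8%. AL-old 10 alone was far from the rest, at 52.5% (Wilson interval 48.7 to 56.2%), and AL-old 08 (94.2%), 09 (92.2%), 13 (97.5%) and 27 (97.1%) were also under every young mouse, as were 4 of the 5 CR-old mice. The log2 odds ratio with age was -2.64 ± 0.84 (SE, edgeR adjusted p = 0.0289) for means of 99.3 ± 0.328%, 90.3 ± 16.9% and 98.5 ± 0.946%, and -1.86 with the offset (adjusted p = 0.135). The call ended without AL-young 30 (adjusted p = 0.0911), AL-old 08 (0.0556), AL-old 09 (0.0725) or AL-old 10 (0.0851). At Cbx6 +4824, 249 bp away and chosen after its values were seen, AL-old 10 was again low (47.3%, Wilson interval 43.5 to 51.0%), while the other AL-old mice had 83.9% to 97.1% and the means were 90.3 ± 1.86%, 85.8 ± 17.5% and 88.9 ± 4.94%. AL-old 10 had nearly equal numbers of reads at these sites, 684 at Cbx6 +5073 and 675 at Cbx6 +4824. Whether the pair was read from the same DNA fragments was not tested, so the low values are not counted as separate readings.

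Phc2, which joins Polycomb complexes through its SAM domain, had the called site with the log2 odds ratio farthest from 0, from an intermediate level in the young. Phc2 +1575 (chr4:128406799-128406804, intron, outside islands) was at 34.9%, 38.2%, 30.0%, 33.6% and 32.8% in AL-young. The AL-old mice with 50 reads had 2.19% (09), 9.66% (10), 2.70% (13), 1.11% (14) and 38.0% (25), the last on 50 reads (Wilson interval 25.9 to 51.8%). CR-old mice had 18.5%, 8.28%, 21.7%, 19.6% and 16.3%. Thus 4 of 5 AL-old mice and all CR-old mice were under every young mouse, whereas AL-old 25 was at the level of the young. AL-old 08 (7.14%) and AL-old 27 (12.8%) had 42 and 39 reads and are not in the mean, although the fit, which takes the counts of every mouse, used them. Means were 33.9 ± 3.00% (n = 5), 10.7 ± 15.6% (n = 5) and 16.9 ± 5.19% (n = 5), and the log2 odds ratio with age was -2.73 ± 0.71 (SE, edgeR adjusted p = 0.00573). It was -2.02 with the offset (adjusted p = 0.0329), and the call held when any 1 mouse was left out (adjusted p from 0.000293 to 0.0219). With the high or low factor as a covariate the log2 odds ratio was -1.09 (adjusted p = 0.51), and among mice with a low factor -0.61 (adjusted p = 0.623). CR-old against AL-young did not pass in the fit of all mice and passed in the fit of those 2 groups alone (edgeR adjusted p = 0.0183). For the fit of 2 groups the share of all sites called is not given. Only Phc2 +1575 and Hdac7 +33 had all CR-old mice lower than all AL-young mice, 2 of 96 sites against 6.74% of all sites, and no site had all of them higher (1.07%). Phc2 +1174, 401 bp away, was at 10.6 ± 2.06%, 4.48 ± 5.91% and 7.16 ± 1.93% (edgeR adjusted p = 0.153), and without AL-old 25 it passed the test (adjusted p = 0.0387).

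Promoter islands of complex 1 stayed unmethylated. The 9 promoter-island sites of Ring1, Rnf2, Phc2 and Asxl1, a partner of a histone H2A deubiquitinase, reached at most 1.08% in any mouse. Cbx7 +6337, in an intron, was at 98.7 ± 1.05%, 94.0 ± 10.9% and 96.0 ± 2.65%, with AL-old 27 at 69.4% (Wilson interval 61.2 to 76.6%), and Cbx7 +6646, 309 bp away, was at 99.2%, 99.1% and 96.8%. Both were chosen after their values were seen. In Polycomb complex 2, 7 promoter-island sites of Ezh1, a methyltransferase of H3K27, and Jarid2, which helps recruit the complex, reached at most 0.559% in any mouse. Jarid2 +67512, in an intron, was at 98.4%, 95.0% and 97.8%, did not pass on raw counts, and was lower in AL-old among mice with a low factor (log2 odds ratio -2.60, edgeR adjusted p = 0.0455). Ezh2, Eed, Suz12, Bmi1, Cbx2, Cbx8 and Phc1 had no measured site, Ezh2 reaching 50 reads in 7 mice.

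Among the lysine demethylases, Kdm6b was the 1 gene with a called site. Kdm6b removes methyl groups from H3K27. Kdm6b -731 (chr11:69218446-69218451, coding exon, outside islands) had 98.2%, 97.4%, 96.4%, 98.3% and 96.5% in AL-young. AL-old ran from 17.2% through a median of 89.3% to 97.7%, and CR-old mice had 98.3%, 91.0%, 95.5%, 96.9% and 97.2%. AL-old 13 (17.2%, 128 reads, Wilson interval 11.6 to 24.7%), 08 (33.3%, 81 reads, 24.0 to 44.1%) and 09 (79.05%) were lowest, and AL-old 25 (97.5%) and 27 (97.7%) were within the range of the young. The lowest CR-old mouse was CR-old 06, the CR-old mouse with a high factor. Means were 97.4 ± 0.912%, 72.6 ± 33.3% and 95.8 ± 2.86%, and the log2 odds ratio with age was -2.71 ± 0.87 (SE, edgeR adjusted p = 0.0292). It was -2.10 with the offset (adjusted p = 0.0455), -0.52 with the high or low factor as a covariate (adjusted p = 0.861) and 0.12 among mice with a low factor (adjusted p = 0.992). The call ended without AL-young 15 (adjusted p = 0.057) or AL-old 08 (0.109), 09 (0.0648) or 13 (0.0854). Kdm6b -580, 151 bp away, stayed at 99.2%, 98.9% and 98.8%, with AL-old mice from 97.9% to 100% (adjusted p = 0.913), and the libraries that were low at Kdm6b -731 were in that range. CR-old against AL-old at Kdm6b -731 had a log2 odds ratio of 2.17 (adjusted p = 0.169) and passed without AL-old 25 (0.034) or AL-old 27 (0.0346). The promoter-island sites of Kdm1a, Kdm2a, Kdm2b and Kdm5b reached at most 1.75% in any mouse, and Kdm4a was not measured.

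**Figure D5:**
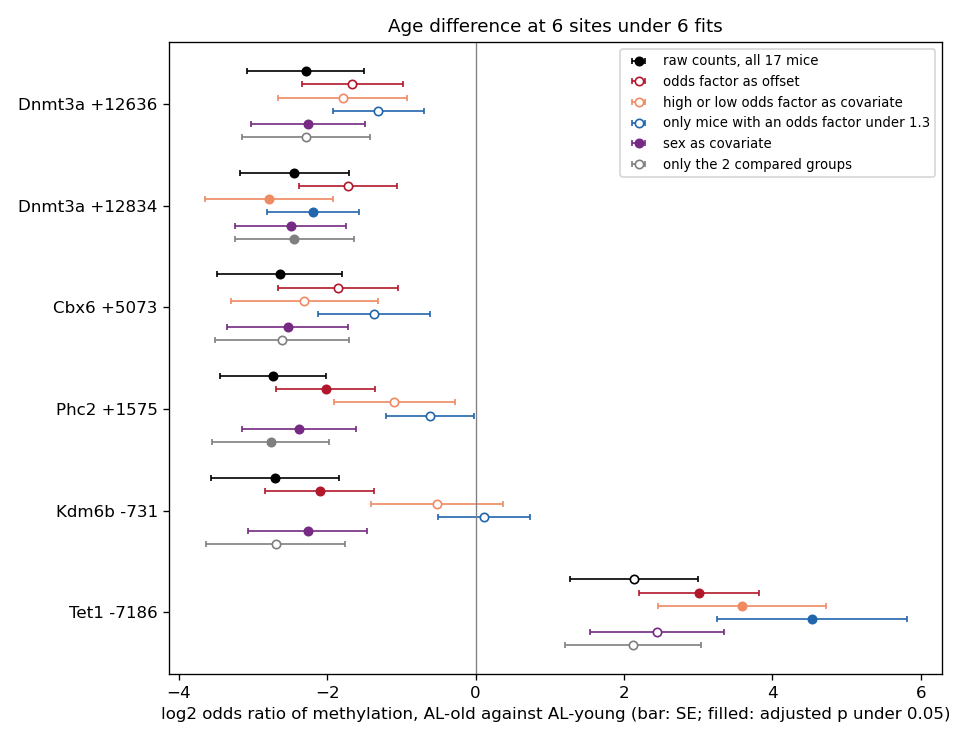
Log2 odds ratio of methylation (x axis, bars are SE) of AL-old against AL-young under 6 fits, at the 5 called sites and Tet1 -7186 (y axis); filled circles have an adjusted p under 0.05. Dnmt3a +12834 lies between -2.79 and -1.72 in all 6 fits, and Kdm6b -731 moves from -2.71 on raw counts to 0.12 among mice with a low odds factor.

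In the remaining groups no site was called on raw counts. Ehmt2, a methyltransferase of H3K9, was the only measured gene of 5 methyltransferases of H3K9 and H3K79, and Ehmt2 +102 was at 0.467%, 0.149% and 0.573% (edgeR adjusted p = 0.562). Setdb1, Ehmt1, Suv39h2 and Dot1l had no measured site. Among the deacetylases, 9 promoter-island sites stayed at or under 0.397% in every mouse. Hdac4, a deacetylase of class IIa, was measured deep in its introns: Hdac4 +59600 was at 94.3 ± 4.41%, 96.1 ± 1.07% (n = 3) and 89.2 ± 5.29% (adjusted p = 0.831), and Hdac4 +59984, chosen after its values were seen, at 80.3 ± 3.46%, 81.4 ± 8.73% (n = 3) and 68.4 ± 14.8%. Hdac7 +33 (chr15:97638380-97638385, an intron of longer transcripts, outside islands) was at 98.0 ± 0.413%, 98.2 ± 2.40% and 95.0 ± 1.56%. For CR-old against AL-old the fitted value here was -1.92 ± 0.74 on the log2 odds ratio scale (SE, edgeR adjusted p = 0.14), and -2.45 with the offset (adjusted p = 0.0305). The lowest AL-old mouse was AL-old 25 (93.0%, Wilson interval 84.6 to 97.0%), and without it the log2 odds ratio was -2.52 (adjusted p = 0.0228). This site too was chosen after its values were seen. Hdac2, Hdac3 and Hdac9 were not measured. Ep300 +438, in a coding exon of the acetyltransferase Ep300, was at 0.208%, 0% and 0% (adjusted p = 0.652), and the single measured site of its relative Crebbp, +45426 in an intron, was at 100.0%, 99.8% and 99.8%. The 3 promoter sites of Ctcf, an insulator protein whose binding methylation can block, and those of Ep300 reached at most 1.04% in any mouse. Smarca4 was not measured.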

How the data were processed

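Genomic DNA of whole blood from 17 mice was digested with SmaI and XmaI by the authors and sequenced; reads were mapped to mm9 per the study's methods, and the submitters' processing notes name Bowtie2, SAMtools, mm9 and mm10. The authors deposited counts of methylated and unmethylated reads per site, and percent methylation, raw and adjusted by spiked standards. Of 173449 sites, all on CCCGGG in the mm9 sequence, 18884 autosomal sites were tested with edgeR 4.0.16 (R 4.3.3; quasi-likelihood F test, 1 coefficient per mouse, common dispersion, Benjamini-Hochberg adjustment over all sites, all 17 mice). Alternatives used the odds factor as offset or covariate, low-factor mice (under 1.3), sex, and limma 3.58.1 on logit adjusted methylation (0.1% added). At 50 reads and 50% methylation the 95% Wilson interval is 36.6 to 63.4%, and 0 of 50 reads allows 6%. On simulated counts of AL-old against AL-young at 4000 sites, 200 of them changed, 83 of the 200 were recovered (41.5%) with 2 false calls. The simulation gave every mouse the same spread setting, had no odds factor and called on the adjusted p alone. Its rates therefore do not carry over to the AL-old libraries, which varied more. Islands were 200 bp windows with 50% GC and an observed-to-expected CpG ratio of 0.6. Sites named were the called sites, the largest uncalled age difference of each role group and the site nearest to a start of 8 genes, of which Dnmt1, Tet2 and Ezh2 had none. Others are marked as chosen after their values were seen. Members and gene lists were chosen with earlier results of these data known. Sequences are from the NCBIM37 (mm9) reference; none is shown for Mbd2. No 2 libraries held identical tables. The edgeR p-values of the main fit set a difference against a spread between mice that was estimated over all 3 groups and partly shared across sites. They do not use the spread of each group alone, and AL-old mice varied more.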

Additional observations from a re-analysis of the deposited data

Results flagged for a closer look

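In groups of 5 to 7 mice whose values ranged over at least 2 points, 45 were examined for a mouse far from the others (Dixon's criterion), and 7 had one. Chance gives about 5% of groups when sites are chosen without seeing their values. Here the flagged groups were all at sites named above. Of these sites, Cbx6 +4824, Cbx7 +6337, Tet1 -7186, Tet1 -7283 and Hdac7 +33 were chosen after their values were seen. The share of flagged groups is therefore not comparable with 5%. Cbx6 accounted for a pair of them, 249 bp apart and in the same mouse: AL-old 10 had 52.5% at Cbx6 +5073, where the nearest other AL-old mouse had 92.2%, and 47.3% at Cbx6 +4824, where the nearest had 83.9%. Tet1 gave another pair 97 bp apart: AL-old 27 had 12.6% at Tet1 -7186 (nearest 0.689%) and 7.49% at Tet1 -7283 (nearest 0.555%). AL-old 27 also stood apart at Cbx7 +6337, with 69.4% where the nearest mouse had 96.7%. AL-old 25 had 38.0% at Phc2 +1575 (nearest 9.66%) and 93.0% at Hdac7 +33 (nearest 98.4%). All 7 were in AL-old.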

How the results depend on the processing

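The 3 comparisons were repeated under other minimum depths, dispersions, differences and covariates and without each mouse. Under minimum depths of 100 and 20 reads, sex as a covariate, trended dispersion and a minimum difference of 5 points or none the number of calls stayed within 1.5 times that on raw counts; Phc2 +1575 could not be tested at 100 reads. Sites higher in AL-old than AL-young numbered 0 on raw counts, 1 with the offset, 1 with the high or low factor as covariate, 2 among mice with a low factor and 1 by limma on adjusted methylation. Sites lower in AL-old numbered 5, and then 2, 1, 2 and 1 in the same order, and 2 with only the 2 compared groups. Sites lower in CR-old than AL-old numbered 2 with the offset and 1 by limma, and sites lower in CR-old than AL-young 2 with those 2 groups alone. Leaving out a mouse gave 0 to 1 sites higher and 1 to 6 lower in AL-old than AL-young (1 without AL-old 08, 2 without AL-old 09 or 13, 3 without AL-young 15 or 30), 0 to 1 higher and 0 to 1 lower in CR-old than AL-old (1 higher without AL-old 25 or 27, 1 lower without AL-old 25), and 0 to 0 in CR-old against AL-young. The counts by limma, with only the 2 compared groups and without single mice are given without a share over all sites. They therefore cannot be set against a background. No paired analysis was possible because the groups shared no mouse numbers.

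Log2 odds ratios that changed sign with age were those of Ehmt2 +102 (limma 0.23), Ep300 +438 (low-factor mice 0.26, limma 0.66, and over single omissions from -0.86 to 0.94, the latter without AL-young 15), Hdac4 +59600 (covariate -0.47, and over single omissions from -0.048, without AL-young 15, to 0.70), Hdac7 +33 (covariate -0.37, low-factor mice -0.89), Kdm6b -580 (offset 0.34, limma 0.32), Kdm6b -731 (low-factor mice 0.12) and Tet1 -7283 (over single omissions from -0.31, without AL-old 27, to 0.93). For CR-old against AL-old, among low-factor mice, they were Cbx6 +5073 (-0.12), Kdm6b -731 (-0.31) and Phc2 +1575 (-0.51), and Tet1 -7283 (-2.85). Tet1 -7283 also turned with the offset (-0.29), covariate (-1.15), sex (-0.19) and limma (-0.26) and without AL-old 10 (-0.0076) or 13 (-0.11), the highest value over single omissions being 1.13. On adjusted methylation the median age difference of member sites in islands was 0.197 points. Among low-factor mice the age difference at Dnmt3a +1643 was 20.7 points. The causes were not tested.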

Other observations

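Other chromatin genes, from a list of 140 names written without the 51 described above, had 222 measured sites in 59 genes. Between AL-old and AL-young, 6 of these sites were called higher and 6 lower (2.70% each, against 3.94% and 6.01% of all sites). Between CR-old and AL-old 2 were called higher and 1 lower (0.901% and 0.450%, against 1.58% and 1.76%). With the odds factor as offset 12 were higher and 2 lower with age (5.41% and 0.901%, against 7.62% and 3.31% of all sites). For CR-old against AL-old 1 was then higher and 7 lower (0.450% and 3.15%, against 1.19% and 6.87%). Among the sites that rose, 3 lay in an intron of the zinc finger methyltransferase gene Prdm16 and 1 in an intron of its relative Mecom. The Mecom site was at 0.235% in the young, 7.46% in AL-old and 0.314% in CR-old mice (edgeR adjusted p = 0.0270 with age, 0.00112 with the odds factor as offset). The sites that fell lay in Brd3, a reader of acetylated histones (2 sites), Whsc1l1, a methyltransferase of H3K36 (2 sites), Wbp7, a methyltransferase of H3K4, and Pcgf2, a Polycomb complex 1 subunit. Brd3 went from 58.4% to 19.1% with age at chr2:27325810-27325815 (edgeR adjusted p = 0.000958, with the offset 0.00216) and was at 44.9% in CR-old (0.0383 against AL-old, with the offset 0.0475). Of the 6 sites that fell, this site and Wbp7 (0.0233) were still called with the offset, and the other Brd3 site (adjusted p = 0.0862), both Whsc1l1 sites (0.129 and 0.0786) and Pcgf2 (0.0947) were not. Promoter islands gave 0 of the 12 sites called with age. Both sites called higher in CR-old than AL-old lay in Brd3, and the call of one of them was lost with the offset (adjusted p 0.0407 on raw counts and 0.0684).

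The SD between mice was larger in AL-old than AL-young at most partly methylated sites, in these genes as over all sites. At the 20 of 96 sites with an AL-young mean of 5% or more, the SD of AL-old was above that of AL-young at 19 (95%, against 94.8% of the 6936 such sites tested) and above that of CR-old at 16 (80%, against 80.8%). The SD of CR-old was above that of AL-young at 18 (90%, against 90.7%). The median SD was 0.982 points in AL-young, 9.80 in AL-old and 2.75 in CR-old, against 1.69, 11.8 and 4.13 over all such sites. Among these 20 sites AL-old 13 was the lowest AL-old mouse at 6, AL-old 08 at 4 and AL-old 14 and AL-old 27 at 3 each, and AL-old 25 was the highest at 5. The spread was not tested, and the odds factor also varied most among AL-old mice.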
